A study of Homo sapiens with 12 samples.

Results

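The comparison described here is dexamethasone against vehicle in neural cultures of the human embryonic stem cell line H9. Its members are the 6 H9 libraries of a series of 12, chosen by the labelled cell line and condition, 3 with dexamethasone and 3 with vehicle. Cultures of both groups had been differentiated for 10 weeks by dual inhibition of SMAD signalling, which turns pluripotent cells toward neural fates, and were kept in neurobasal medium with B-27, ascorbic acid, cyclic AMP, BDNF and GDNF. The dexamethasone group received 1 µM dexamethasone for 6 h, and the vehicle group DMSO, the solvent, for 6 h. The 3 cultures of a group were of 1 line and are called sisters here. Their labels number them 1 to 3 and do not say whether they shared a differentiation. Differences between donors cannot be seen in them, and those between differentiations cannot be told apart from other differences between cultures. The other 6 libraries, from the embryonic stem cell line H1 under the same protocol, serve only as a comparison in a line whose libraries took no part in choosing the H9 genes.

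Dexamethasone is a synthetic agonist of the glucocorticoid receptor, a nuclear receptor that the gene NR3C1 encodes. Without hormone the receptor waits in the cytoplasm in a complex with HSP90 and its co-chaperones. With hormone it moves into the nucleus, where it binds response elements as a pair and raises some genes, while at others it restrains factors such as NF-kappaB and AP-1. In the brain the same receptor answers the stress hormone cortisol, and its best known targets include proteins that damp the receptor's own signal. The standard B-27 supplement contains corticosterone, a natural ligand of the receptor. Whether the medium used here held it is not given in the sources used here.

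Polyadenylated RNA was counted per gene, and levels are given as CPM, the count of a gene scaled to library size with TMM factors over the 6 H9 libraries. CPM is not corrected for transcript length, so levels are compared between libraries and not between genes. In bulk RNA, fewer cells of a type and less RNA per cell cannot be told apart. Total counts lay between 14751168 and 27505804, and vehicle culture 3 had the lowest. Some markers of several neural cell types were found in every H9 library, while other members of the same lists were low or had no count. The excitatory neuron markers summed to between 77.2 and 97.1 CPM. MAP2 of neurons lay between 1380 and 1820 CPM, VIM of progenitors and glia between 1900 and 3560 CPM, and GAD1 of inhibitory neurons between 142 and 202 CPM. The pluripotency factor POU5F1 had no count in any of them, and none of the 7 microglial markers reached the level for testing. SOX2 also had no count and TUBB3 lay between 0.245 and 0.798 CPM. Both overlap another annotated gene on the same strand, as does the metallothionein MT1X, which had no count either. The part of this overlap in their low counts was not tested.

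Vehicle culture 3 stood apart from the other H9 libraries. Mitochondrially encoded genes took 0.607% of its counts, against 4.80% and 5.14% in vehicle cultures 1 and 2 and 5.31% to 5.64% in the dexamethasone cultures. It lay outside the range of the other 5 libraries for 82.2% of 15984 autosomal genes, a share that was 18.6% to 31.9% for each of the other libraries. From its 2 sisters it was 0.840 and 0.871 away as a root mean square over genes (log2), and these were 0.301 apart. MT-CO1, a subunit of cytochrome oxidase, was at 10700 and 11400 CPM in vehicle cultures 1 and 2 and at 697 CPM in culture 3. MALAT1, a long RNA that stays in the nucleus, was at 631 and 625 CPM against 1640 CPM. NES, an intermediate filament of progenitors, was at 1050 and 1070 CPM against 5010 CPM, while 7 of the 10 tested members of the progenitor list lay below both sisters and 2 above, with a median of −0.41 (log2, culture 3 minus its sisters).

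**Figure D1:**
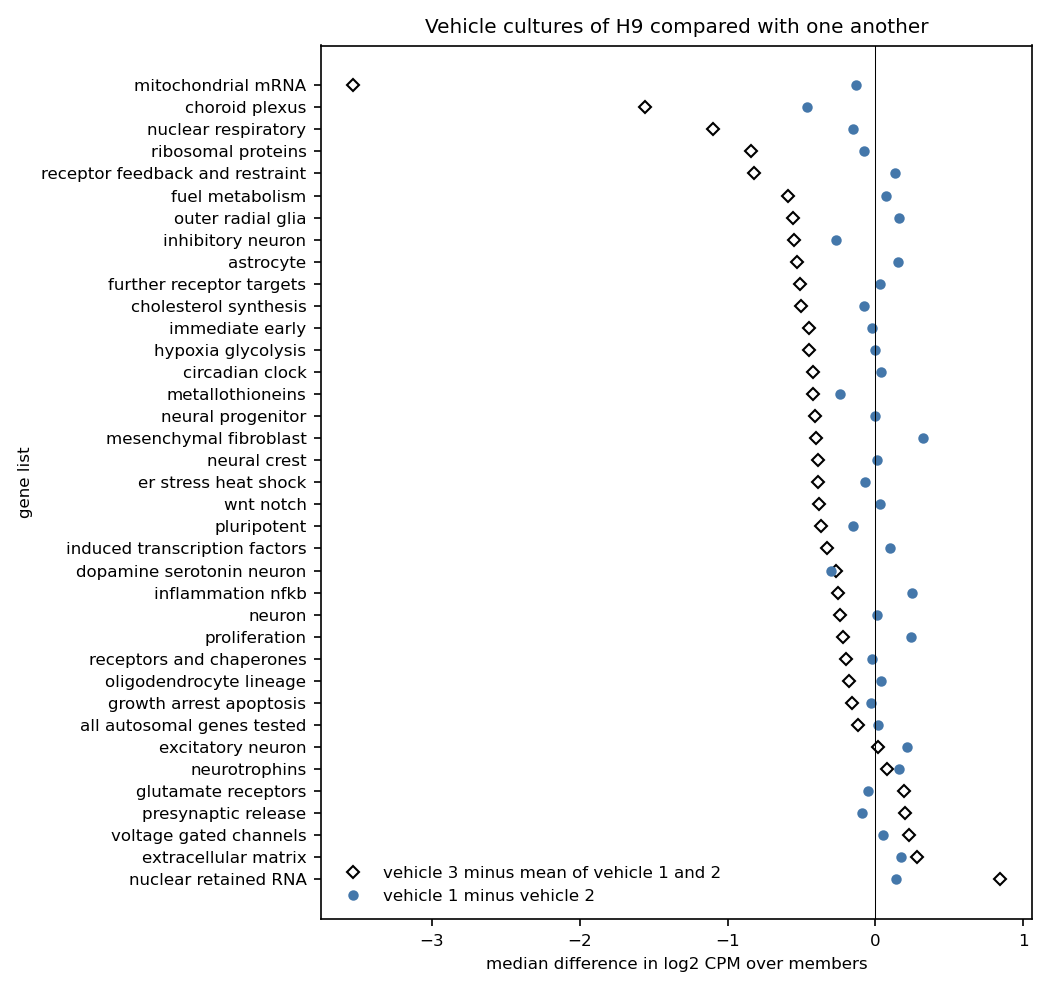
Median difference in log2 CPM over the tested members of each gene list, for vehicle culture 3 against the mean of vehicle cultures 1 and 2 (open diamonds) and for vehicle culture 1 against 2 (filled circles). In culture 3 the mitochondrial mRNAs stand at −3.53 and the nuclear-retained RNAs at 0.84, while all autosomal genes have a median of −0.12.

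Over the 15984 autosomal genes tested with 6 libraries, culture 3 lay below both sisters for 8182 and above both for 6289. The median member of the mitochondrial mRNAs lay at −3.53 (log2, culture 3 minus its sisters), with 12 of 13 members below both sisters. For the choroid plexus markers the median was −1.56, with 5 of 6 members below both, and the leading member TTR, the thyroxine carrier of the choroid plexus, was at 28.0, 103 and 12.3 CPM in vehicle cultures 1 to 3. TTR also spread from 15.4 to 130 CPM within the dexamethasone group. Nuclear genes of the respiratory chain had a median of −1.10, with ATP5F1B of ATP synthase at 521, 576 and 255 CPM in the vehicle cultures, and ribosomal proteins had a median of −0.84. A list of 13 genes that restrain the receptor's signal or that of its partner pathways had a median of −0.82. In culture 3, 10 of them lay below both sisters and 2 above both. FKBP5, on this list, was at 4.71, 3.67 and 4.30 CPM in vehicle cultures 1 to 3. The main counts and the leading genes are therefore given with and without this culture.

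With all 6 libraries, 2 of 15984 autosomal genes tested passed edgeR's quasi-likelihood test at an adjusted p of 0.05, a share of 0.0125%, and both were higher with dexamethasone. They were FKBP5 and MT2A, and neither passed when any library other than vehicle culture 3 was left out. In all, 814 genes had an unadjusted p under 0.05. Without vehicle culture 3, 54 of 16211 autosomal genes passed (0.333%), 46 of them higher (0.284%) and 8 lower (0.0493%). The count was 32 when vehicle culture 2 was left out as well and 145 when vehicle culture 1 was. Of the 46 rises, 24 passed in each of the 5 fits that left out a further library. Among the 20 largest, the exceptions were MT3, ALDH1L1, TENT5B and METTL7B, which passed in 4 of these fits, CDH3 in 3 and PAPLN in 2. The 54 had the same sign with all 6 libraries, where 39 of the 46 rises and 7 of the 8 falls had an unadjusted p under 0.05, against 5.09% of all genes. That agreement is between fits that share 5 libraries. The fits that left out a further library also use only libraries that chose the 54 genes. Those without vehicle culture 1 or 2 keep 1 vehicle culture. Passing again in them is therefore a description and not support. For the other 52 of these genes the edgeR adjusted p with all 6 libraries lay between 0.107 for RASSF4 and 0.746 for MT3. Groups without overlap were common. Over the 6 libraries the dexamethasone cultures lay above every vehicle culture for 12.3% of the 16211 genes and below every one for 9.97%. The 20 largest rises and the largest falls named here were chosen without overlap over the 5 libraries other than culture 3. In those genes only culture 3 could bring an overlap, so these shares are no yardstick for them. The values nearest the threshold were those of RRAGD (edgeR adjusted p = 0.0449) inside it and ZFP36 (edgeR adjusted p = 0.0527) outside it.

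**Figure D2:**
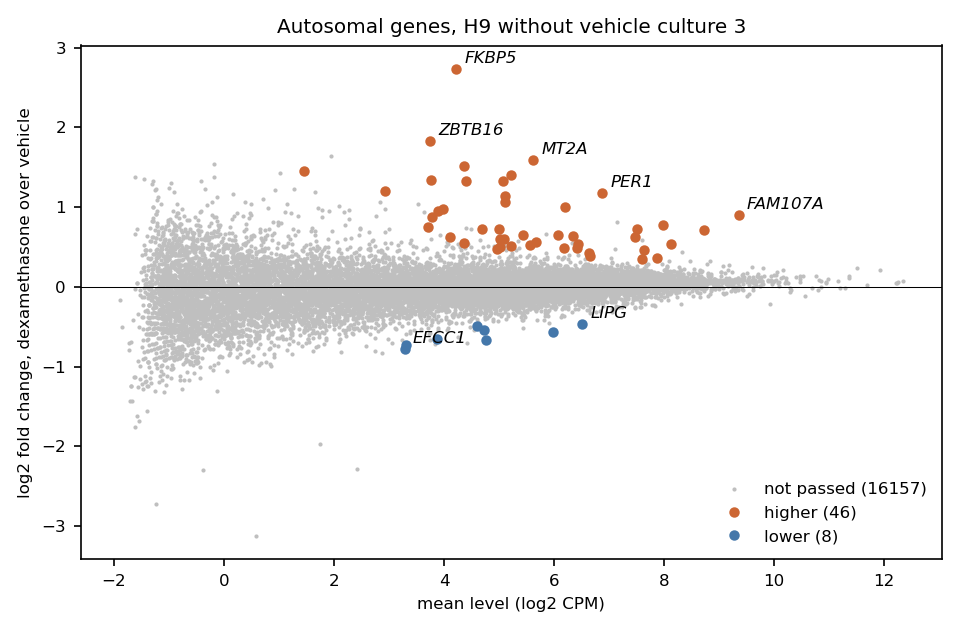
Mean level (log2 CPM) and log2 fold change, dexamethasone over vehicle, of the 16211 autosomal genes tested in H9 without vehicle culture 3, each point a gene. Of the 54 genes that passed, 46 lie above 0 and 8 below, and FKBP5 stands highest among them at 2.73.

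FKBP5, a co-chaperone that lowers the hormone affinity of the glucocorticoid receptor and is itself a receptor target, rose most (ENSG00000096060.14, chr6:35573585-35728583, minus strand, GRCh38). It was at 4.71, 3.67 and 4.30 CPM in vehicle cultures 1 to 3 and at 29.1, 25.5 and 29.8 CPM in dexamethasone cultures 1 to 3. All 3 dexamethasone libraries lay above all 3 vehicle libraries, culture 3 included. The log2 fold change was 2.69 ± 0.17 (SE) with 6 libraries (edgeR adjusted p = 0.0110) and 2.73 ± 0.14 without culture 3 (edgeR adjusted p = 6.4e-07), which is 6.65-fold.

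MT2A, a metallothionein that binds zinc and copper, was the other gene that passed with all libraries (ENSG00000125148.6, chr16:56608199-56609497, plus strand). It was at 20.8, 23.3 and 17.0 CPM with vehicle and at 68.2, 65.3 and 67.4 CPM with dexamethasone. The vehicle libraries were low together and the dexamethasone libraries within a narrow range. Its log2 fold change was 1.68 ± 0.13 with 6 libraries (edgeR adjusted p = 0.0300) and 1.59 ± 0.08 without culture 3 (edgeR adjusted p = 6.4e-07).

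The metallothioneins lie side by side on chromosome 16 and are similar in sequence, so reads can be lost or split among them. Of 11 listed members 4 were tested, and 2 rose without culture 3, MT2A and MT3. MT3, the form of neurons and astrocytes, was at 8.21, 10.2 and 20.4 CPM with vehicle and at 16.6, 15.5 and 14.8 CPM with dexamethasone. Vehicle culture 3 was the highest of the 6, so the groups overlapped, and the log2 fold change went from 0.75 ± 0.13 without it to 0.22 ± 0.35 with it (edgeR adjusted p = 0.0230 and 0.746). MT1E (0.587 to 0.691 CPM with dexamethasone, 0.184 to 0.402 CPM with vehicle) and MT1F did not pass.

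Transcription factors were among the largest rises. ZBTB16, a zinc finger repressor also known as PLZF (chr11:114059593-114250676), was at 5.51, 4.94 and 13.0 CPM with vehicle and at 18.1, 17.3 and 20.8 CPM with dexamethasone. Culture 3 lay between its sisters and the dexamethasone libraries. The log2 fold change was 1.83 ± 0.13 without culture 3 (edgeR adjusted p = 1.46e-05) and 1.21 ± 0.39 with it (edgeR adjusted p = 0.596). HIF3A, which encodes the third alpha subunit of the hypoxia-inducible factors (chr19:46297046-46343433), was at 8.97, 10.2 and 13.2 CPM with vehicle and at 26.7, 31.2 and 25.2 CPM with dexamethasone. It rose by 1.52 ± 0.12 (log2) without culture 3 and was at 1.31 ± 0.20 with it (edgeR adjusted p = 3.72e-05 and 0.596). KLF9, a Krüppel-like factor that represses other factors of its family (chr9:70384597-70414624), was at 8.05, 5.92 and 5.34 CPM with vehicle and at 17.1, 17.6 and 18.8 CPM with dexamethasone, a rise of 1.34 ± 0.14 (log2) without culture 3 and a value of 1.43 ± 0.18 with it (edgeR adjusted p = 0.000386 and 0.257). For HIF3A and KLF9 the 2 groups did not overlap over all 6 libraries. Both had been chosen without overlap over the 5 libraries other than culture 3.

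Of 18 tested members of the list of induced transcription factors, 5 rose without culture 3, none fell and 15 had a positive log2 fold change, with a median of 0.32 (0.35 with 6 libraries). Over all autosomal genes 0.284% rose and 49.0% were positive, with a median of 0.00. These shares are the background of every list named here. All lists were drawn up with earlier results of these data known. Their shares are therefore a description and no independent evidence of a direction. The other 2 transcription factor list members that rose were KLF15, which regulates amino acid and glucose metabolism (13.2, 12.5 and 14.3 CPM with vehicle, 20.8, 19.3 and 20.0 CPM with dexamethasone), and TIPARP, an ADP-ribosyltransferase that restrains the aryl hydrocarbon receptor. TIPARP was at 60.8, 54.7 and 20.8 CPM with vehicle and at 78.2, 80.2 and 87.4 CPM with dexamethasone, with a log2 fold change of 0.49 without culture 3 and 0.82 ± 0.34 with it. CEBPD, a bZIP factor, had a log2 fold change of 0.71 ± 0.16, the transcriptional repressor BCL6 of 0.40 ± 0.08 and the forkhead factors FOXO3 and FOXO1 of 0.33 ± 0.09 and 0.31 ± 0.08. None of these 4 passed (edgeR adjusted p from 0.0706 to 0.168).

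Genes that restrain the receptor's signal or that of its partner pathways were counted in a list of 13, of which 2 rose without culture 3 and 13 were positive. Over all autosomal genes 0.284% rose and 49.0% were positive. The median log2 fold change of the list was 0.20 without culture 3 and 0.40 with all 6 libraries, and culture 3 was low for this list, as given above. RASD1, a Ras-related protein first found as a dexamethasone-induced gene, was at 9.94, 8.90 and 5.28 CPM with vehicle and at 18.8, 16.7 and 19.7 CPM with dexamethasone. It rose by 0.95 ± 0.12 (log2) without culture 3 and had 1.15 ± 0.22 with it (edgeR adjusted p = 0.00215 and 0.596). ZFP36, which speeds the decay of AU-rich mRNAs, had a log2 fold change of 0.59 ± 0.11, and NFKBIA, the inhibitor of NF-kappaB, of 0.49 ± 0.10 (edgeR adjusted p = 0.0527 and 0.0543).

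Other widely known targets did not pass. SGK1, a kinase that acts on ion channels, was at 35.7, 31.7 and 21.8 CPM with vehicle and at 33.2, 35.2 and 36.3 CPM with dexamethasone, a log2 fold change of 0.04 ± 0.08 without culture 3. DUSP1, the phosphatase that turns off MAP kinases, had 0.28 ± 0.11 without culture 3 (edgeR adjusted p = 0.389), and its groups overlapped. ERRFI1, an inhibitor of the EGF receptor, had 0.29 ± 0.08 (edgeR adjusted p = 0.198). Expression was measured at 6 h only.

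The receptors themselves did not pass. NR3C1 was at 43.2, 36.5 and 28.0 CPM with vehicle and at 37.3, 37.0 and 35.3 CPM with dexamethasone, and its log2 fold change was −0.14 ± 0.09 without culture 3. The mineralocorticoid receptor gene NR3C2, whose product binds the natural corticosteroids cortisol and corticosterone with high affinity, was at 14.6, 14.5 and 15.7 CPM with vehicle and at 11.6, 13.1 and 11.3 CPM with dexamethasone. Every dexamethasone library lay below every vehicle library, as in 9.97% of all genes, with a log2 fold change of −0.36 ± 0.14 over 6 libraries and −0.29 ± 0.11 without culture 3 (edgeR adjusted p = 0.596 and 0.349). Of 17 tested members of the list of receptors and chaperones none passed in either direction, and the median was 0.08 (0.10 with 6 libraries). PTGES3, the HSP90 co-chaperone p23, had the smallest p after NR3C2, at 0.16 ± 0.06.

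PER1, a repressor of the circadian clock (chr17:8140472-8156506), was the strongest member of the clock list. It was at 61.9, 70.1 and 85.0 CPM with vehicle and at 144, 145 and 163 CPM with dexamethasone, so the groups lay far apart in every library. It rose by 1.18 ± 0.08 (log2) without culture 3 (edgeR adjusted p = 1.46e-05) and had 1.01 ± 0.17 with it. It was the only one of 22 tested clock genes to pass, and 13 of them were positive, with a median of 0.04 (0.13 with 6 libraries). BHLHE41, another clock repressor, had 0.31 ± 0.08 and did not pass (edgeR adjusted p = 0.149). PER1 overlaps another annotated protein-coding gene on the same strand, and the part of this overlap in its counts was not tested.

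**Figure D3:**
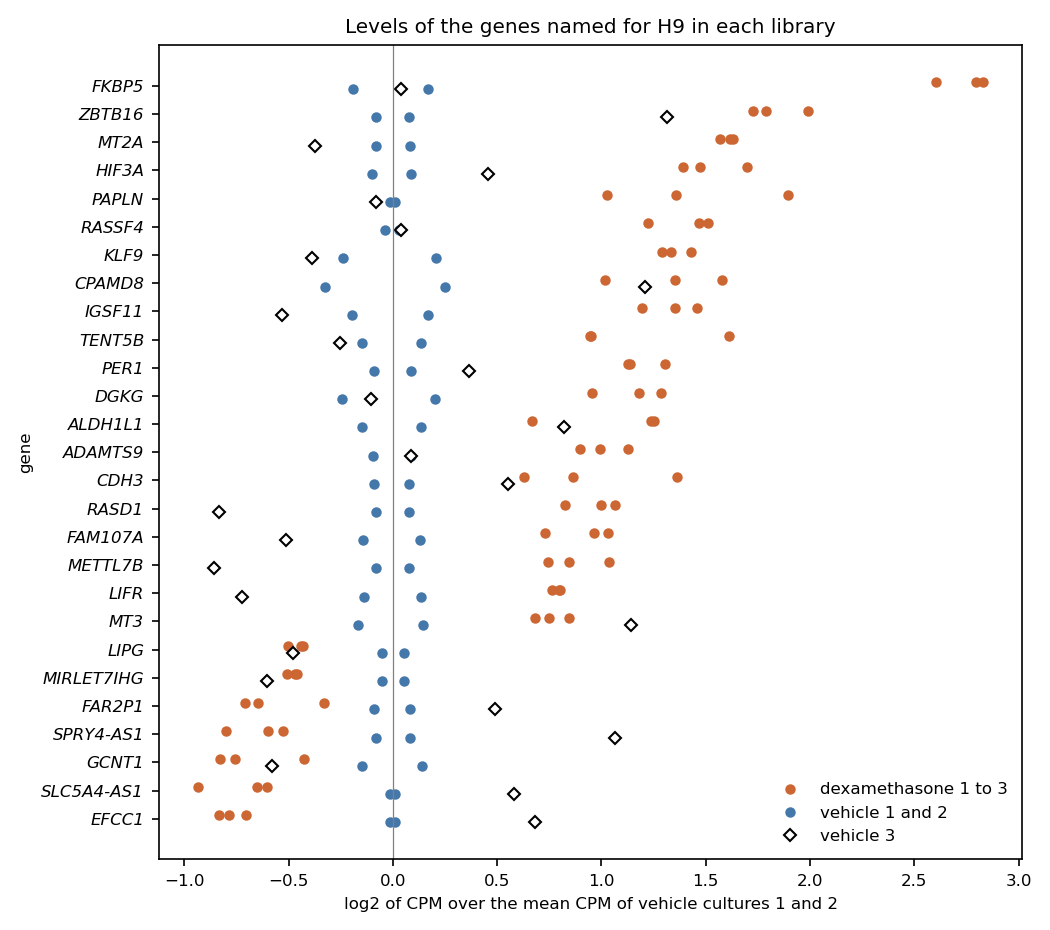
Level of each gene with the 20 largest rises and 7 largest named falls in every H9 library, as log2 of its CPM over the mean of vehicle cultures 1 and 2. Dexamethasone libraries (orange) lie right of vehicle cultures 1 and 2 (blue) for the rises and left for the falls, which is how the genes were chosen, while vehicle culture 3 (open diamonds), which took no part in that choice, lies among or beyond the dexamethasone libraries for CPAMD8, ALDH1L1, MT3, LIPG, GCNT1 and MIRLET7IHG.

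RASSF4, which binds Ras, was at 18.1, 19.0 and 19.1 CPM with vehicle and at 53.1, 43.5 and 51.5 CPM with dexamethasone, and rose by 1.40 ± 0.10 (log2) without culture 3 (edgeR adjusted p = 1.46e-05). Its 3 vehicle cultures were close together, culture 3 included, and the log2 fold change with all 6 was 1.35 ± 0.14 (edgeR adjusted p = 0.107). DGKG, a kinase of diacylglycerol, was at 16.8, 22.9 and 18.5 CPM with vehicle and at 38.6, 48.6 and 45.1 CPM with dexamethasone (1.14 ± 0.13 without culture 3, 1.14 ± 0.16 with it). PIK3R1, the regulatory subunit of PI3-kinase, was at 137, 122 and 140 CPM against 225, 201 and 219 CPM (0.72 ± 0.08 and 0.65 ± 0.13). DDIT4, an inhibitor of mTORC1 signalling, was at 30.3, 33.7 and 22.8 CPM against 48.2, 53.5 and 49.6 CPM (0.65 ± 0.08 and 0.77 ± 0.15). These 4 genes were among the 12.3% with every dexamethasone library above every vehicle library. RASSF4 and DGKG had been chosen without overlap over the 5 libraries other than culture 3.

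PIK3R1 and DDIT4 were the 2 members that rose among 20 tested genes of fuel metabolism, of which 17 were positive with a median of 0.16 (0.29 with 6 libraries). PDK4, which turns cells from glucose to fat by inhibiting pyruvate dehydrogenase, was at 1.13, 0.939 and 0.246 CPM with vehicle and at 2.20, 2.41 and 2.65 CPM with dexamethasone. These levels are low, and its log2 fold change of 1.22 ± 0.24 did not pass (edgeR adjusted p = 0.0539). GLUL, the glutamine synthetase of astrocytes, had 0.32 ± 0.07 (edgeR adjusted p = 0.0873).

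IGSF11, an adhesion molecule of the immunoglobulin family, was at 19.7, 15.3 and 12.1 CPM with vehicle and at 48.1, 40.0 and 44.7 CPM with dexamethasone (log2 fold change without culture 3 1.33 ± 0.12, edgeR adjusted p = 9.5e-05, and 1.46 ± 0.18 with it, edgeR adjusted p = 0.257). ADAMTS9, a secreted protease that cleaves matrix proteoglycans, was at 42.8, 48.5 and 48.5 CPM against 85.1, 100 and 90.9 CPM (1.00 ± 0.09 without culture 3, 0.94 ± 0.13 with it). It was the only one of 28 tested genes of the extracellular matrix list to pass, and that list had 13 positive members and a median of 0.00 (−0.12 with 6 libraries). Both genes had vehicle and dexamethasone libraries that did not overlap, as their choice required for all libraries but culture 3. PAPLN, the matrix protein papilin, was at 1.29, 1.31 and 1.23 CPM against 3.33, 4.83 and 2.65 CPM, and the cadherin CDH3 at 10.5, 9.35 and 14.6 CPM against 15.4, 25.6 and 18.1 CPM. The dexamethasone libraries differed among themselves in both. Without culture 3 PAPLN rose by 1.46 ± 0.28 and CDH3 by 0.98 ± 0.18 (edgeR adjusted p = 0.0446 and 0.0368), and with it they had 1.45 ± 0.28 and 0.73 ± 0.27 (edgeR adjusted p = 0.596 in both).

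CPAMD8, a secreted protein of the alpha-2-macroglobulin family, was at 8.77, 13.1 and 25.4 CPM with vehicle and at 28.1, 32.9 and 22.3 CPM with dexamethasone. Culture 3 lay within the dexamethasone range, and the log2 fold change was 1.33 ± 0.18 without it and 0.76 ± 0.40 with it (edgeR adjusted p = 0.00413 and 0.596). TENT5B, of a family of poly(A) polymerases, was at 4.67, 3.84 and 3.56 CPM against 8.18, 8.20 and 13.0 CPM (1.20 ± 0.21 without culture 3, 1.24 ± 0.24 with it). METTL7B, a thiol methyltransferase, was at 9.62, 8.61 and 5.04 CPM against 15.3, 16.4 and 18.7 CPM (0.87 ± 0.12 and 1.08 ± 0.23). Culture 3 was the lowest vehicle library in both of these.

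Markers of outer radial glia, the progenitors of the outer subventricular zone of the human cortex, included 2 rises among 7 tested members. Over all autosomal genes 0.284% rose and 49.0% were positive. FAM107A, an actin-binding protein that is also known as a stress-responsive gene (chr3:58564117-58627610, minus strand), was at 388, 468 and 300 CPM with vehicle and at 709, 834 and 874 CPM with dexamethasone. LIFR, the receptor of leukaemia inhibitory factor, was at 192, 159 and 106 CPM against 305, 304 and 297 CPM. The groups did not overlap in either gene, as their choice required for all libraries but culture 3. Culture 3 was the lowest library in both. Without culture 3 FAM107A rose by 0.90 ± 0.10 and LIFR by 0.77 ± 0.08 (edgeR adjusted p = 0.000794 and 0.000488), and with it they had 1.03 ± 0.18 and 0.96 ± 0.19 (edgeR adjusted p = 0.596 in both). HOPX, another marker of these cells, was at 40.5, 31.9 and 14.1 CPM against 64.9, 35.8 and 57.6 CPM and did not pass (edgeR adjusted p = 0.320), nor did MOXD1 at 0.38 ± 0.10 (edgeR adjusted p = 0.165). The median of the list was 0.38 (0.52 with 6 libraries). Both members that passed also stand on the list of further receptor targets, of whose 21 tested members 9 rose, none fell and 19 were positive, with a median of 0.32 without culture 3 and 0.51 with it. That list, like the others, was drawn up with earlier results of these libraries known and is no independent evidence of a direction.

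FAM107A is shown with its promoter because it was the only one of the 46 rises with a full receptor element in the windows searched. The windows are RefSeq promoters on GRCh38.p14, from 250 bases before to 50 after an annotated start, and 35 of the 46 rises and 6 of the 8 falls had an entry, with 63 and 9 windows. The element searched was GNACANNNTGTNC, which reads alike on both strands. It was in 2 windows of FAM107A and in 1 of MIRLET7IHG among the falls, and in 0.391% of all 33725 autosomal windows. The half-site AGAACA or its reverse complement TGTTCT, which can lie within the element, was in 11 of the 63 windows of rises and in 14.8% of all windows. FKBP5 had a half-site and no full element. The first 2 lines are FAM107A at chr3:58586965-58587264 and chr3:58577342-58577641, with the element in capitals, 220 and 182 bases before the start. The last is FKBP5 at chr6:35728534-35728833, with the half-site in capitals at the start itself. All 3 are on the minus strand and written 5′ to 3′. A match is a run of letters and not a measured site.
FAM107A start 1: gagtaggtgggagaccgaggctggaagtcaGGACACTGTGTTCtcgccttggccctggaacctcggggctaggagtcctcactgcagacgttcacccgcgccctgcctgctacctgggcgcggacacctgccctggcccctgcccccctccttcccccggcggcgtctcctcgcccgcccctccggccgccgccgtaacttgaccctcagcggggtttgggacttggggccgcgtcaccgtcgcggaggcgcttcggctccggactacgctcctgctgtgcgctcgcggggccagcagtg
FAM107A start 2: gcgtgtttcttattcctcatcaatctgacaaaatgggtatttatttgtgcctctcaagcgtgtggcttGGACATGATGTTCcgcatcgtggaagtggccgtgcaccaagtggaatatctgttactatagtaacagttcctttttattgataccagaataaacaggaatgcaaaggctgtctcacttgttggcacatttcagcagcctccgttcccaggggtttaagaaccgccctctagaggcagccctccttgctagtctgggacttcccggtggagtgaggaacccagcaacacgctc
FKBP5: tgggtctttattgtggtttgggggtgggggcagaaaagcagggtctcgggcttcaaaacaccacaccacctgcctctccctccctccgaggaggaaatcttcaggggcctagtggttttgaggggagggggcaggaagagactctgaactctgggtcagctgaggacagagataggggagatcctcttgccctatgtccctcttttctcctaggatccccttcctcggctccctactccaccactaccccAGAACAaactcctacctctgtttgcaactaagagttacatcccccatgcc

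Astrocyte markers showed 1 rise among 11 tested. ALDH1L1, a folate enzyme used to mark astrocytes, was at 22.6, 18.6 and 36.4 CPM with vehicle and at 49.0, 32.7 and 48.6 CPM with dexamethasone. Vehicle culture 3 lay above dexamethasone culture 2, and the log2 fold change was 1.06 ± 0.16 without culture 3 and 0.69 ± 0.30 with it (edgeR adjusted p = 0.0079 and 0.596). GFAP, the filament of astrocytes, was at 127, 67.8 and 176 CPM with vehicle and at 249, 73.8 and 192 CPM with dexamethasone. It spread more than 2 fold within each group, and culture number 2 was the lowest in both. The summed level of the astrocyte list ranged from 3030 to 4290 CPM with vehicle and from 3870 to 4940 CPM with dexamethasone. The part of cell makeup in the rise of ALDH1L1 was not tested.

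The rises beyond the 20 largest lay between 0.35 and 0.73 on the log2 scale, and most of those described next were chosen once their values had been seen. They included the GTPase-activating protein ARHGAP31 (0.73 ± 0.09), the small GTPase RHOU (0.72 ± 0.09), the binding protein of insulin-like growth factors IGFBP5 (0.71 ± 0.09), the spermine oxidase SMOX (0.65 ± 0.08) and the lipid transporter MFSD2A (0.60 ± 0.10). IGFBP5 was at 292, 321 and 367 CPM with vehicle and at 499, 453 and 563 CPM with dexamethasone, without overlap. SMOX was at 51.4, 48.4 and 81.0 CPM against 79.1, 72.4 and 84.5 CPM, so that culture 3 lay among the dexamethasone libraries, and the log2 fold change with all 6 was 0.33 ± 0.24. NUDT4, a hydrolase of inositol pyrophosphates, was at 68.4, 52.3 and 37.7 CPM against 93.8, 88.4 and 103 CPM, and it has near-identical copies that could share its reads. It also overlaps the protein-coding gene UBE2N on the opposite strand.

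A Wnt ligand and its receptor were both among the small rises. WNT5A, a ligand of the non-canonical pathway, was at 36.9, 37.4 and 21.9 CPM with vehicle and at 51.4, 54.6 and 55.6 CPM with dexamethasone (0.53 ± 0.08, edgeR adjusted p = 0.00655). ROR1, a receptor of WNT5A, was at 27.0, 24.2 and 34.4 CPM against 35.3, 34.6 and 39.6 CPM, with culture 3 just below the dexamethasone libraries, and had a log2 fold change of 0.50 without culture 3 and 0.31 ± 0.18 with it. HEY1, a target of Notch, rose by 0.48 ± 0.09. WNT5A and HEY1 were the 2 rises among 27 tested Wnt and Notch genes, of which 16 were positive with a median of 0.02 (0.12 with 6 libraries). WNT7A, at 0.63 ± 0.12, did not pass (edgeR adjusted p = 0.0539).

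Immediate early and inflammatory genes gave no call. None of 23 tested immediate early genes passed, and their median was 0.06 (0.10 with 6 libraries). FOS, a subunit of AP-1, was at 128, 126 and 59.3 CPM with vehicle and at 134, 139 and 156 CPM with dexamethasone. None of 20 tested genes of inflammation passed, 9 were positive and the median was −0.04 (0.01 with 6 libraries). CCL2, a chemokine that draws monocytes, was at 89.3, 72.0 and 11.5 CPM with vehicle and at 61.2, 53.5 and 72.3 CPM with dexamethasone. Its log2 fold change was −0.38 ± 0.12 without culture 3 and 0.10 ± 0.59 with it (edgeR adjusted p = 0.234 and 0.931), and the groups overlapped in both. TGFB3, a ligand of the TGF-beta family, had −0.35 ± 0.14 without culture 3 (edgeR adjusted p = 0.368). PTGS2, the inducible cyclooxygenase, was at 0.430 to 1.05 CPM with vehicle and at 1.03 to 1.84 CPM with dexamethasone, levels near the limit for testing. IL6ST, the gp130 subunit that LIFR pairs with, was at 180, 141 and 76.8 CPM against 214, 209 and 211 CPM, with a log2 fold change of 0.38 ± 0.09 without culture 3 (edgeR adjusted p = 0.107).

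Genes of growth and survival gave 1 call. GADD45A, a stress protein that slows the cell cycle, was at 68.9, 67.9 and 72.0 CPM with vehicle and at 94.3, 94.1 and 101 CPM with dexamethasone, and rose by 0.48 ± 0.07 (edgeR adjusted p = 0.00661). All 3 vehicle cultures were within a narrow range here, and so were the dexamethasone cultures. It was the 1 rise among 18 tested genes of growth arrest and apoptosis, whose median was 0.12 (0.11 with 6 libraries). MCL1, which blocks apoptosis, had 0.32 ± 0.07 (edgeR adjusted p = 0.0809). Of 18 tested proliferation genes none passed and 16 were positive, with a median of 0.22 (0.28 with 6 libraries). Over all autosomal genes 49.0% were positive, with a median of 0.00. Vehicle culture 1 minus vehicle culture 2 had a median of 0.24 (log2) over the proliferation genes, without any dexamethasone. The kinase CDK1 was at 7.65, 4.78 and 1.97 CPM with vehicle and at 9.06, 9.61 and 7.64 CPM with dexamethasone, with overlap between vehicle culture 1 and dexamethasone culture 3.

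Lower genes were fewer. Of the 8, 5 were not protein-coding, and the share of such genes among all genes tested is not given here. EFCC1, a protein with EF-hand and coiled-coil domains, was at 12.8, 13.0 and 20.7 CPM with vehicle and at 7.93, 7.49 and 7.25 CPM with dexamethasone. It fell by 0.78 ± 0.12 (log2) without culture 3 (edgeR adjusted p = 0.00841), and its log2 fold change with all 6 was −1.09 (edgeR adjusted p = 0.596). The antisense RNA SLC5A4-AS1 was at 13.0, 12.8 and 19.3 CPM against 8.22, 8.49 and 6.75 CPM, and SPRY4-AS1 at 17.6, 19.7 and 38.9 CPM against 12.3, 12.9 and 10.7 CPM. The log2 fold change of SPRY4-AS1 was −0.65 without culture 3 and −1.14 ± 0.34 with it. In these 3 genes the dexamethasone libraries were below every vehicle library, as their choice required for all libraries but culture 3. Each of the 3, like GCNT1, MIRLET7IHG, FAR2P1 and ENSG00000284707, overlaps at least 1 gene on the opposite strand. Without a stated strand setting their reads cannot be told apart from those of such genes. Overlaps were looked up for some of the named genes only.

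GCNT1, which builds branched O-glycans, was at 38.3, 31.4 and 23.3 CPM with vehicle and at 19.6, 20.6 and 25.9 CPM with dexamethasone, and fell by 0.67 ± 0.12 (edgeR adjusted p = 0.0364). LIPG, the endothelial lipase, was at 105, 113 and 78.1 CPM against 80.3, 77.0 and 80.9 CPM and fell by 0.47 ± 0.07 (edgeR adjusted p = 0.00792). MIRLET7IHG, the host transcript of the microRNA let-7i, was at 30.4, 28.3 and 19.3 CPM against 21.2, 20.6 and 21.3 CPM and fell by 0.49 ± 0.09 (edgeR adjusted p = 0.0298). In these 3 genes vehicle culture 3 was as low as the dexamethasone libraries or lower, so the groups overlapped over all 6. FAR2P1, a pseudogene of a fatty acyl reductase whose reads can be shared with its relatives, was at 83.1, 73.6 and 110 CPM against 62.4, 50.1 and 48.0 CPM. The last of the 8, ENSG00000284707, has no symbol and went from 32.7, 32.4 and 47.1 CPM to 23.5, 23.2 and 21.1 CPM. It overlaps ASNS, a protein-coding gene with no count in any H9 library, on the same strand. The part of this overlap in its counts was not tested. None of the 8 passed in all 5 fits that left out a further library. EFCC1 and LIPG passed in 4, SPRY4-AS1, GCNT1 and ENSG00000284707 in 3, SLC5A4-AS1 in 2, FAR2P1 in 1 and MIRLET7IHG in 0. Just outside the threshold were UBAP1L at −0.55 ± 0.11, WNT2B at −0.51 ± 0.10 and CSAD at −0.42 ± 0.08 (edgeR adjusted p from 0.0543 to 0.0552).

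Vehicle culture 3 was not used to choose these 54 genes. The dexamethasone libraries it is compared with were, which in part fixes the shares that follow, so they are a description and not support. It lay below all 3 dexamethasone libraries for 41 of the 46 rises (89.1%), against 49.7% of all 16211 autosomal genes tested. The exceptions were CPAMD8, ALDH1L1, SMOX and ZHX3, within the dexamethasone range, and MT3, above it. It lay above all 3 dexamethasone libraries for 5 of the 8 falls (62.5%), against 38.5% of all genes.

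**Figure D4:**
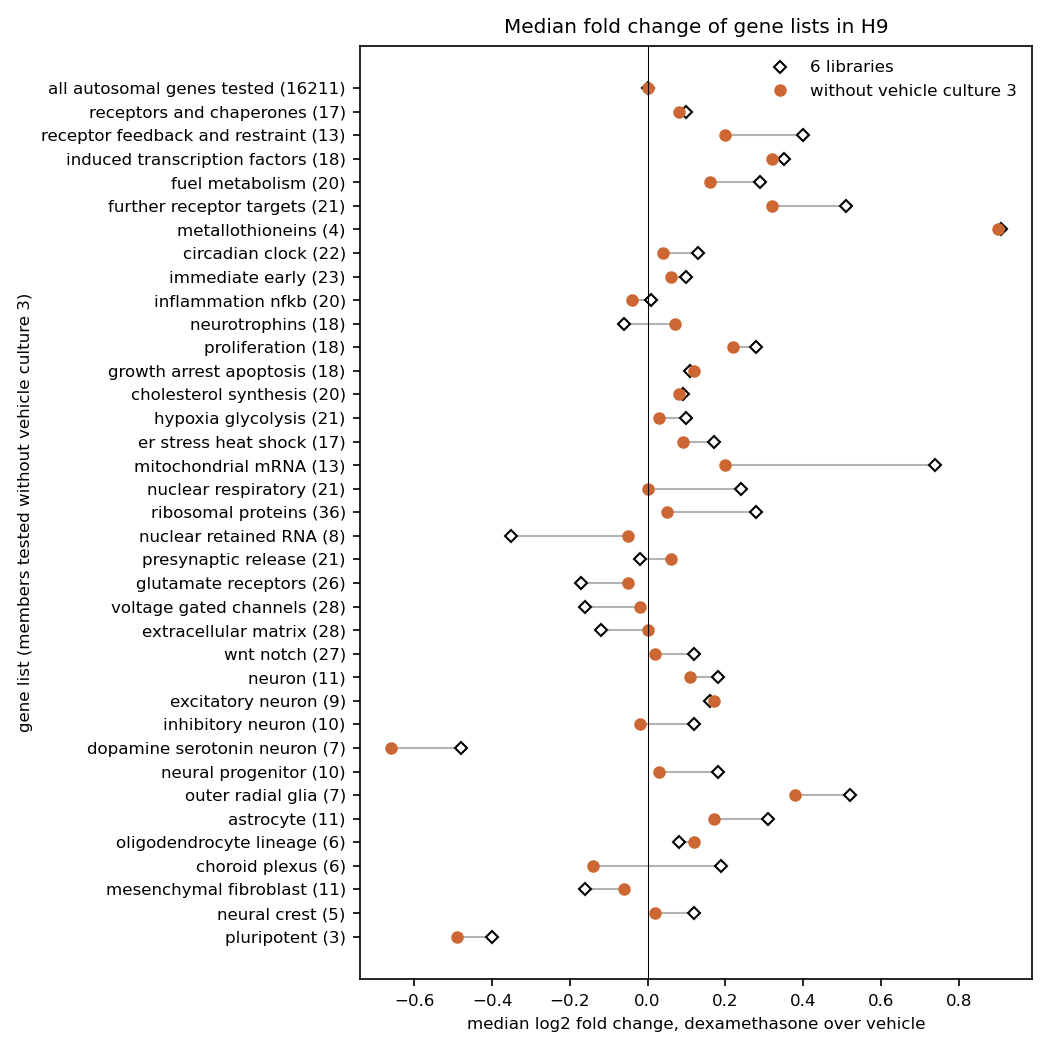
Median log2 fold change, dexamethasone over vehicle, of each gene list with at least 3 tested members, with all 6 libraries (open diamonds) and without vehicle culture 3 (filled circles), the number of tested members in brackets. The mitochondrial mRNAs move from 0.74 to 0.20 and the ribosomal proteins from 0.28 to 0.05 when culture 3 is left out, while the metallothioneins stay at 0.91 and 0.90.

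Some lists moved with the culture that was left out. The median log2 fold change of the 13 mitochondrial mRNAs was 0.74 with 6 libraries and 0.20 without culture 3, that of 36 ribosomal proteins 0.28 and 0.05, and that of 8 nuclear-retained RNAs −0.35 and −0.05 (7 tested with 6 libraries). No member of these passed in either fit. CACNA1C, a voltage-gated calcium channel, shows the same at 1 gene. It was at 149, 150 and 307 CPM with vehicle and at 129, 120 and 113 CPM with dexamethasone, with a log2 fold change of −0.81 with all libraries and −0.32 ± 0.07 without culture 3 (edgeR adjusted p = 0.596 and 0.0968).

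Markers of dopamine and serotonin neurons had mostly negative values and none passed. Of 7 tested members 1 was positive, against 49.0% of all autosomal genes, with a median of −0.66 without culture 3 and −0.48 with it. Vehicle culture 1 minus vehicle culture 2 had a median of −0.30 (log2) over this list. TPH2, the enzyme of brain serotonin synthesis, was at 13.4, 10.5 and 6.82 CPM with vehicle and at 7.93, 8.61 and 6.33 CPM with dexamethasone. LMX1A, a factor of dopamine progenitors, was at 8.17, 13.4 and 8.66 CPM against 6.17, 7.90 and 5.91 CPM, and FEV, a factor of serotonin neurons, at 2.37, 3.39 and 2.03 CPM against 1.42, 1.91 and 1.69 CPM (edgeR adjusted p = 0.107, 0.182 and 0.219 without culture 3). The groups overlapped in TPH2 through culture 3 only. In LMX1A and FEV every dexamethasone library lay below every vehicle library, as in 9.97% of all genes. All 3 levels are low, and the summed level of the list was 46.4 to 54.9 CPM with vehicle and 34.8 to 46.3 CPM with dexamethasone.

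COL1A2, a fibrillar collagen chain, was at 18.1 CPM in vehicle culture 1 and at 2.04 and 2.03 CPM in cultures 2 and 3, against 1.76, 3.08 and 1.42 CPM with dexamethasone. Its log2 fold change was −2.28 ± 0.60 without culture 3 (edgeR adjusted p = 0.163) and 0.03 when vehicle culture 1 was left out as well. None of the 11 tested mesenchymal markers passed, and their summed level was 491 to 552 CPM with vehicle and 503 to 581 CPM with dexamethasone. AQP1, a water channel on the choroid plexus list, was at 4.87, 3.63 and 4.54 CPM with vehicle and at 10.7, 5.78 and 10.5 CPM with dexamethasone. Every dexamethasone library lay above every vehicle library, as in 12.3% of all genes, and AQP1 did not pass (edgeR adjusted p = 0.101).

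In H1, where 49 of 16045 autosomal genes passed in a fit of the H1 libraries alone (0.305%), the H9 rises leaned the same way. Of the 46, 41 had a positive log2 fold change in H1, against 48.5% of 15364 genes tested in both lines, and 16 passed as higher. The median of the 46 was 0.71 in H9 without culture 3 and 0.40 in H1. FKBP5 was at 2.01 ± 0.13 (log2) in H1, HIF3A at 1.77 ± 0.10, ZBTB16 at 1.28 ± 0.13 and MT2A at 0.96 ± 0.10. Of the 8 falls 5 were negative in H1 and none passed there. GCNT1 was at −0.67 ± 0.12 in H9 and at −0.65 in H1 (edgeR adjusted p = 0.0754 in H1).

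**Figure D5:**
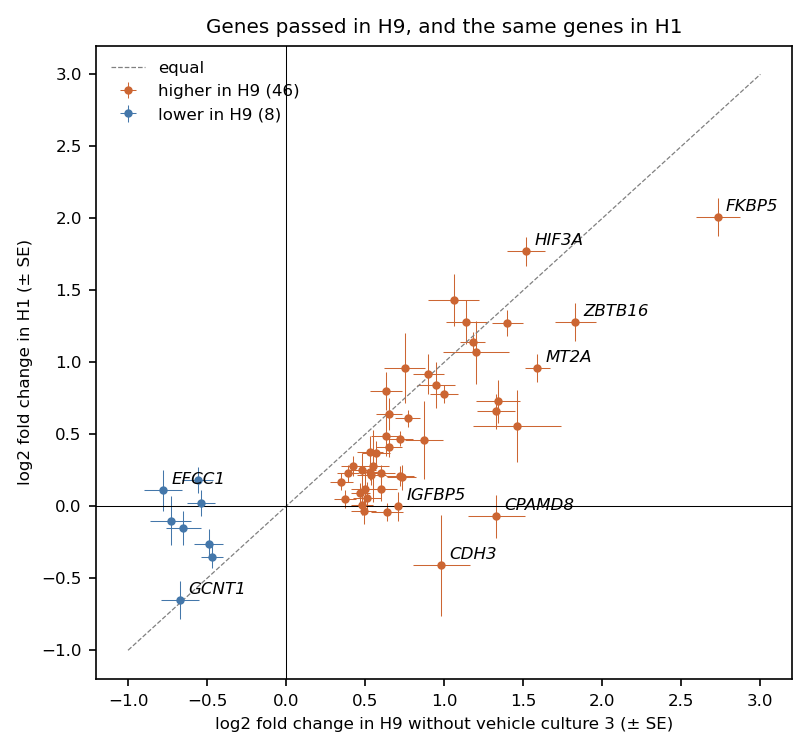
Log2 fold change, dexamethasone over vehicle, of the 54 genes that passed in H9 without vehicle culture 3 (horizontal axis) and of the same genes in H1 (vertical axis), with standard errors as bars and equality as a dashed line. FKBP5 lies at 2.73 in H9 and 2.01 in H1 and HIF3A at 1.52 and 1.77, while CPAMD8 and IGFBP5 lie near 0 in H1.

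Some H9 rises had values near 0 in H1. CPAMD8 was at 6.01 ± 0.899 CPM with vehicle and 5.76 ± 0.674 CPM with dexamethasone in H1 (mean ± SD, n = 3 each). IGFBP5 was at 226 ± 33.6 and 226 ± 24.0 CPM there, GADD45A at 34.0 ± 1.35 and 34.4 ± 2.07 CPM and NUDT4 at 52.3 ± 2.13 and 51.1 ± 2.17 CPM. Without culture 3 the effect in H9 minus that in H1 was 1.39 ± 0.26 (log2) for CPAMD8, 0.70 ± 0.15 for IGFBP5, 0.67 ± 0.13 for NUDT4 and 0.47 ± 0.09 for GADD45A. The test of that difference passed for none of them (edgeR adjusted p = 0.305 in each). With all 12 libraries, culture 3 included, the difference between the lines passed for 0 of 16928 autosomal genes with edgeR. The count was also 0 with DESeq2 and limma-voom, while 1276 genes had an unadjusted edgeR p under 0.05. No H9 effect is therefore shown to differ from that in H1.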

How the data were processed

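The authors deposited 1 file of raw, unnormalized counts per library, made with STAR 2.5.3a and HTSeq against hg38 (GRCh38.p10), per the submitters' processing notes. The annotation release is not given in the sources used here, nor are the strand setting and the use of multi-mapped reads. Positions are from GENCODE 29 on GRCh38, 1-based. Of 63925 gene IDs 55068 were autosomal, and 5841 had no name or position. Libraries were pooled over more than 1 flow cell, per the labels' protocols, with no flow cell given for a library.

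Genes were kept by filterByExpr and tested with edgeR 4.0.16 (TMM, quasi-likelihood F-test, 1 mean per group, Benjamini-Hochberg adjustment over all genes tested, threshold 0.05) on the H9 libraries alone, with and without vehicle culture 3, and autosomal rows are reported. Non-autosomal genes, TSC22D3 among them, are described only as the mitochondrial list. The H1 libraries were fitted alone, and the difference between lines over all 12 libraries. Standard errors are the log2 fold change over the square root of F. Replicates are cultures of 1 line, called sisters here, so p-values reflect how much such cultures vary and nothing beyond. No pair agreed within sampling noise (chi-square per degree of freedom 4.80 to 173).

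The members, gene lists and tests were chosen with earlier results of these data known. Genes are named by rule: all that passed with 6 libraries, the 20 largest rises and up to 15 falls without culture 3 (adjusted p under 0.05, mean CPM of at least 1, no overlap over 5 libraries), falls filled to 10 by p, all members of the feedback, transcription factor, metallothionein and receptor lists, and at most 4 of any other list by p. Other names were chosen after their values were seen. Some genes that the rule takes in are not reported here. Alternatives were DESeq2 1.42.0, RLE size factors, limma-voom 3.58.1 with and without sample quality weights, no filter, a filter of 1 CPM in 3 libraries, library sizes trimmed of the mitochondrial and the 20 highest genes, a minimum log2 change of 0.5, the spread pooled over all libraries, culture number as a block, and each library left out. The test was checked on simulated counts. Software was R 4.3.3, Python 3.11.15 and matplotlib 3.10.9.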

Additional observations from a re-analysis of the deposited data

How the results depend on the processing

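With 6 libraries, 2 genes passed; the count was also 2 with RLE size factors, limma-voom, the 1 CPM filter, trimmed library sizes and a minimum log2 change of 0.5. It was 19 with DESeq2, 4 with no filter, 12 with the spread pooled over all 12 libraries and 157 with voom quality weights, which gave vehicle culture 3 a weight of 0.0563. All 19 and all 12 were among the 54 found without culture 3, and so were 53 of the 157. Leaving out 1 library gave 0 to 54, with 54 only without vehicle culture 3 and 0 without any other library. Without culture 3, 54 genes passed; DESeq2 gave 152 (107 higher) and no filter 382 (218 higher). Leaving out a further library gave 32 (without vehicle culture 2) to 145 (without vehicle culture 1). Of the 54 genes, 24, all rises, passed in each of these 5 fits, and MIRLET7IHG in none. In H1 alone 49 genes passed; DESeq2 gave 185, no filter 432 and leaving out 1 library 22 (without dexamethasone culture 1) to 101 (without dexamethasone culture 2). The difference between lines stayed at 0 in every alternative. The cause of these moves was not tested.

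Deviations from the group means of same-numbered cultures had correlations of −0.02, 0.15 and 0.02. The vehicle mean includes the outlying culture 3, so these values could hardly show a pairing. Whether the numbers pair the samples is not settled, and the main fits do not pair them. With the culture number as a replicate block, 0 genes passed with 6 libraries (581 at an unadjusted p under 0.05), 393 (213 higher) without culture 3, a fit with 1 residual degree of freedom, and 202 in H1.

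The sign changed for few of the named genes. In the 6-library fit, leaving out 1 library gave −0.04 (without vehicle culture 1) to 0.75 for MT3 and −0.14 to 0.13 (without vehicle culture 1) for NR3C1, which was also at 0.02 with no filter, 0.01 with the replicate block and 0.01 without dexamethasone culture 3. For CCL2, at 0.10 in that fit, it gave −0.38 (without vehicle culture 3) to 0.55, with −0.03 without dexamethasone culture 3 and −0.28 with voom quality weights. Without culture 3, the range was −0.25 to 0.00 for NR3C1 and −3.12 to 0.03 for COL1A2 (both highest without vehicle culture 1), and −0.04 (without vehicle culture 2) to 0.14 for SGK1. With 2 vehicle libraries and 20871163 to 27505804 counts per library, small changes of low genes are not detectable.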

Other observations

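In vehicle culture 3, 6289 of 15984 autosomal genes lay above both sister cultures and 8182 below both. Of 28 tested voltage-gated channel genes 18 lay above both, as did 19 of 28 genes of the extracellular matrix list and 14 of 26 glutamate receptor genes. CACNA1A, a calcium channel of presynaptic terminals, was at 40.8 and 38.1 CPM in vehicle cultures 1 and 2 and at 102 CPM in culture 3, against 31.5 to 34.1 CPM with dexamethasone. Among the immediate early genes 15 of 23 lay below both sisters, with CCN2, a matrix-associated growth regulator, at 256 and 269 CPM against 107 CPM. ZFP36 was at 19.7 and 18.8 CPM against 5.47 CPM. Of the genes that miss the threshold without culture 3, CCN2 (0.43 ± 0.09), MCL1 (0.32 ± 0.07) and IL6ST (0.38 ± 0.09) were lowest of all H9 libraries in culture 3.

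PDGFRB, a receptor of pericytes and mesenchymal cells, was at 32.7, 32.5 and 38.7 CPM with vehicle and at 23.8, 27.3 and 27.3 CPM with dexamethasone. Every dexamethasone library lay below every vehicle library, as in 9.97% of all genes, and PDGFRB did not pass (edgeR adjusted p = 0.170).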
